A study of Mus musculus with 16 samples.

Results

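The genes described here make cholesterol, sense sterols in the endoplasmic reticulum and move sterols inside the cell. They were taken by gene symbol from a list of 28 names, of which 26 were found among the 16973 genes of the count table: 7 enzymes of the mevalonate pathway, 3 that make squalene and lanosterol, 8 that turn lanosterol into cholesterol, 5 genes of SREBP-2 and the proteins that hold it back, and 3 of sterol transport. Mvd was not found by symbol or gene ID, so its level was not analysed. Msmo1 was found by its gene ID (ENSMUSG00000031604) under the older symbol Sc4mol, so its values are given but kept out of every count of members. Mvd and Msmo1 are both among the listed genes whose promoters were searched.

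The study concerns the deubiquitylating enzyme RPN11 in fatty liver disease and sets its loss in hepatocytes beside that of METTL3, the enzyme that writes m6A onto RNA. RNA depleted of ribosomal RNA was sequenced from 16 livers of male C57BL/6 mice in 4 groups of 4: RPN11 flox/flox, RPN11 hepatocyte-specific knockout, METTL3 flox/flox and METTL3 hepatocyte-specific knockout. Each knockout was compared with the flox/flox mice of its own line, and nothing in the labels ties a replicate number to a litter or a day. The promoter that drives the deletion, the diet and the age of the mice stand as not given in the sources used here, and the other cells of the liver keep the targeted gene. Replicates are labelled only as separate livers.

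Cholesterol is built from acetyl-CoA by way of mevalonate, farnesyl diphosphate, squalene and lanosterol. SREBP-2, the product of Srebf2, is a transcription factor held in the endoplasmic reticulum by SCAP and the INSIG proteins while sterols are plentiful. When sterols fall, SCAP carries it to the Golgi, where proteases free the part that enters the nucleus and turns on the genes of this pathway, and in liver this loop sets how much cholesterol hepatocytes make.

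Total counts ran from 15980959 to 29029592 per liver. Levels of single genes are given as counts per 1000000 (CPM), scaled within each comparison, so levels of different lines are not on 1 scale. Sums over marker lists use plain totals instead and were not repeated in scaled levels. The size of a difference in these sums may therefore not hold on the scale of single genes. Psmd14, the gene of RPN11, was at 74.2 ± 10.3 CPM under the knockout label and at 73.8 ± 3.28 CPM in flox/flox (SD, n = 4; log2 fold change 0.01, SE 0.11, edgeR adjusted p = 0.976), so no loss of it was seen. The former are therefore called the labelled RPN11 knockout livers, and each direction drawn from them rests on the label. Mettl3 fell in the METTL3 knockout, from 16.6 ± 2.19 to 6.79 ± 0.193 CPM (log2 fold change -1.29, adjusted p = 0.000647). A list of 20 brain genes summed to 1190.5 CPM in labelled RPN11 knockout liver 4 and to 838 CPM in METTL3 knockout liver 4, against 167 to 418 CPM in the other livers. All 8 hepatocyte markers were detected in all 16 livers. Their sum was 126066 to 141782 CPM in METTL3 flox/flox livers and 78131 to 132077 CPM in METTL3 knockout livers. In the RPN11 line it was 119683 to 146534 CPM in flox/flox livers and 109058 to 124981 CPM in labelled knockouts. Macrophage markers, 9 of 10 analysed, summed to 131 to 198 CPM in METTL3 flox/flox and 378 to 1321 CPM in METTL3 knockout livers, and to 176 to 303 and 231 to 949.5 CPM in the RPN11 line. Markers of 4 other cell types were also higher in every METTL3 knockout than in any of its controls. Cholangiocyte markers summed to 8.46 to 16.4 CPM in flox/flox and 35.7 to 63.3 CPM in knockout livers, stellate cell markers to 69.6 to 90.5 and 169.9 to 263 CPM, endothelial markers to 57.8 to 83.3 and 128 to 170.1 CPM, and lymphocyte markers to 9.18 to 17.1 and 29.3 to 81.2 CPM. In the RPN11 line cholangiocyte (7.63 to 13.6 against 16.7 to 19.4 CPM), lymphocyte (11.9 to 16.5 against 24.9 to 65.6 CPM) and stellate markers (82.1 to 91.8 against 92.6 to 102 CPM) were higher in every labelled knockout, while endothelial sums overlapped. Red cell sums overlapped in both lines. The part of these cell types in the results was not tested. In a liver sample, fewer cells of a type and less RNA per cell cannot be told apart.

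In control livers the members covered about 2 orders of magnitude when read per length, as CPM per kilobase of annotated exon (GENCODE M21). The highest medians in RPN11 flox/flox livers belonged to Insig2, a protein that retains SCAP in the endoplasmic reticulum (125), and to Sc5d, a sterol desaturase near the end of the pathway (114). Ebp, the sterol isomerase, had a median of 81.0, Insig1 of 75.7 and Hmgcs1, the cytosolic HMG-CoA synthase, of 62.1 CPM per kilobase. The same 5 genes held the first 5 places in METTL3 flox/flox livers, led by Ebp at 107 and Sc5d at 95.5. At the other end stood Srebf2 itself (median 1.96 in RPN11 flox/flox and 1.76 in METTL3 flox/flox livers), Ggps1, which makes geranylgeranyl diphosphate (1.32 and 1.02), and Mvk, mevalonate kinase (0.952 and 1.43). The ranges of Srebf2 and Ggps1 did not overlap in RPN11 flox/flox livers but did in METTL3 flox/flox livers, and those of Ggps1 and Mvk overlapped in both.

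**Figure D1:**
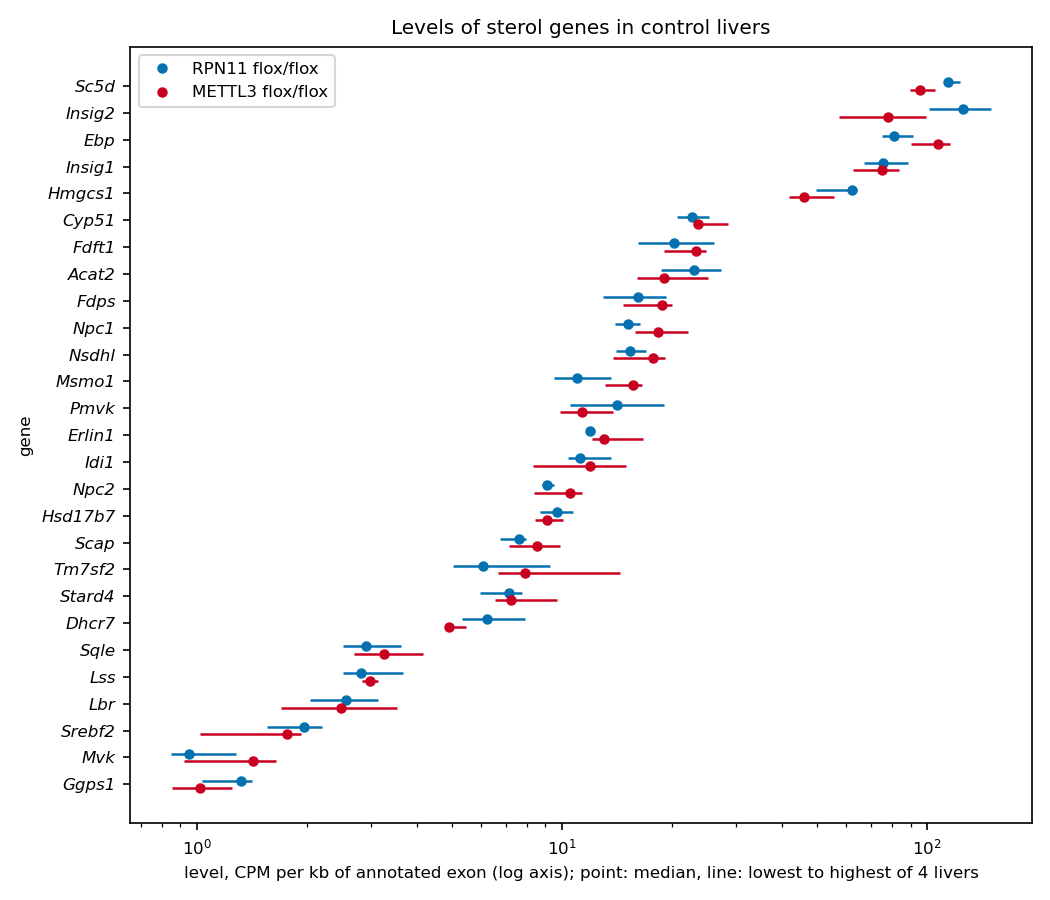
Level of each gene in control livers as CPM per kilobase of annotated exon on a log axis, with the median as a point and the lowest to highest of 4 livers as a line, RPN11 flox/flox in blue and METTL3 flox/flox in red. Sc5d, Insig2, Ebp, Insig1 and Hmgcs1 lie above all other genes, and Ggps1, Mvk and Srebf2 lie at the bottom.

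SREBP-2 binds sterol elements in promoters, often beside NF-Y and Sp1 boxes, so the promoters of 7 members that moved in at least 1 comparison are shown: the 250 bases before the annotated start, from RefSeq (build GRCm38.p6), read 5′ to 3′ on the gene's strand. On the plus strand lie Hmgcs1 (chr13:119690101-119690350), Idi1 (chr13:8885356-8885605), Srebf2 (chr15:82147019-82147268) and Insig1 (chr5:28071162-28071411). On the minus strand lie Cyp51 (chr5:4104698-4104947), Acat2 (chr17:12960726-12960975) and Ebp (chrX:8193513-8193762). Capitals mark matches on either strand to a sterol element searched as TCACNCCAC, to the NF-Y box CCAAT and to the Sp1 box GGGCGG, and no matches overlapped.
Hmgcs1: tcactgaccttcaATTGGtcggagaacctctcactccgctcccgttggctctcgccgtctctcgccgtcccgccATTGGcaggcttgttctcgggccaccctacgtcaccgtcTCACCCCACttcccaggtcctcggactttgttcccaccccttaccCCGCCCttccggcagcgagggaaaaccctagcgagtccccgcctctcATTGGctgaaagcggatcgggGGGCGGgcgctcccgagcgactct
Idi1: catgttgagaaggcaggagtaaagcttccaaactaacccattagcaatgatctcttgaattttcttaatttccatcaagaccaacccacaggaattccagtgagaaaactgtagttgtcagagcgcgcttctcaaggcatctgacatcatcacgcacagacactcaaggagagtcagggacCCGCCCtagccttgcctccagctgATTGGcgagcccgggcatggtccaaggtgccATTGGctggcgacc
Cyp51: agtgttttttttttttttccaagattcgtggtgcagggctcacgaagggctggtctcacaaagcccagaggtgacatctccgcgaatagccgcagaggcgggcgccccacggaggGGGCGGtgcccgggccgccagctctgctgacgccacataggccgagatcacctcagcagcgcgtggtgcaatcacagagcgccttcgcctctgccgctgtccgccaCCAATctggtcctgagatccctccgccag
Srebf2: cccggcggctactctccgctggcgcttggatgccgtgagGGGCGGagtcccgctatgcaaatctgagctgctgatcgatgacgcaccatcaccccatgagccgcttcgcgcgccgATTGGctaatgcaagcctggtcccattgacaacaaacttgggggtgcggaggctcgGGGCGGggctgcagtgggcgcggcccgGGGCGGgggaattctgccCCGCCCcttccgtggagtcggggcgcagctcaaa
Insig1: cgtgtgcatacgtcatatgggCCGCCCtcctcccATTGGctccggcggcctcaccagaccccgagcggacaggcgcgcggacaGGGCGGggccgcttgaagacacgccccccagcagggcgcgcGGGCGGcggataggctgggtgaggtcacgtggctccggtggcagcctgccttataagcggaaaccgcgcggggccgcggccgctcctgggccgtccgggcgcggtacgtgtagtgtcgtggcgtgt
Acat2: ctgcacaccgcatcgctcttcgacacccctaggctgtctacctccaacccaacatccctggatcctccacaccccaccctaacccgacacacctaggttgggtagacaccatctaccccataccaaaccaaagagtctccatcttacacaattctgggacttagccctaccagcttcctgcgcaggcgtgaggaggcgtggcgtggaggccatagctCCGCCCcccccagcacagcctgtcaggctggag
Ebp: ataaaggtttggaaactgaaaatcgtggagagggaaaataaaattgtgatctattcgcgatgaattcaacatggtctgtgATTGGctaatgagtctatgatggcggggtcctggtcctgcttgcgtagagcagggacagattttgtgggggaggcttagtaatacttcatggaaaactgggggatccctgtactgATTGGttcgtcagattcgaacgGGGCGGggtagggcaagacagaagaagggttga

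Only Hmgcs1 held the sterol element as searched in these 250 bases, with its first base 137 bases before the start. Stretches that depart from these letters by a base were not searched for, so other members may hold such a variant. Over the whole windows of 300 bases, which run on 50 bases past the start, 1 of the 23 listed genes with a window held it (4.35%), against 1.44% of all 27025 genes with one. The NF-Y box was present for 21 of the 23 (91.3%), against 41.1% of all genes, and the Sp1 box likewise for 21, against 38.2%. These shares of all genes were not limited to genes found in the livers, and the share among those was not counted. Acat2 has an Sp1 box and no NF-Y box in the stretch shown. Fdft1, Fdps, Sqle, Stard4 and Npc1 had no window in the table used. A match is a run of letters and not a measured site, and the 1 matching gene, Hmgcs1, had changes inside the range of the 20 members with a window and no match in both lines.

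**Figure D2:**
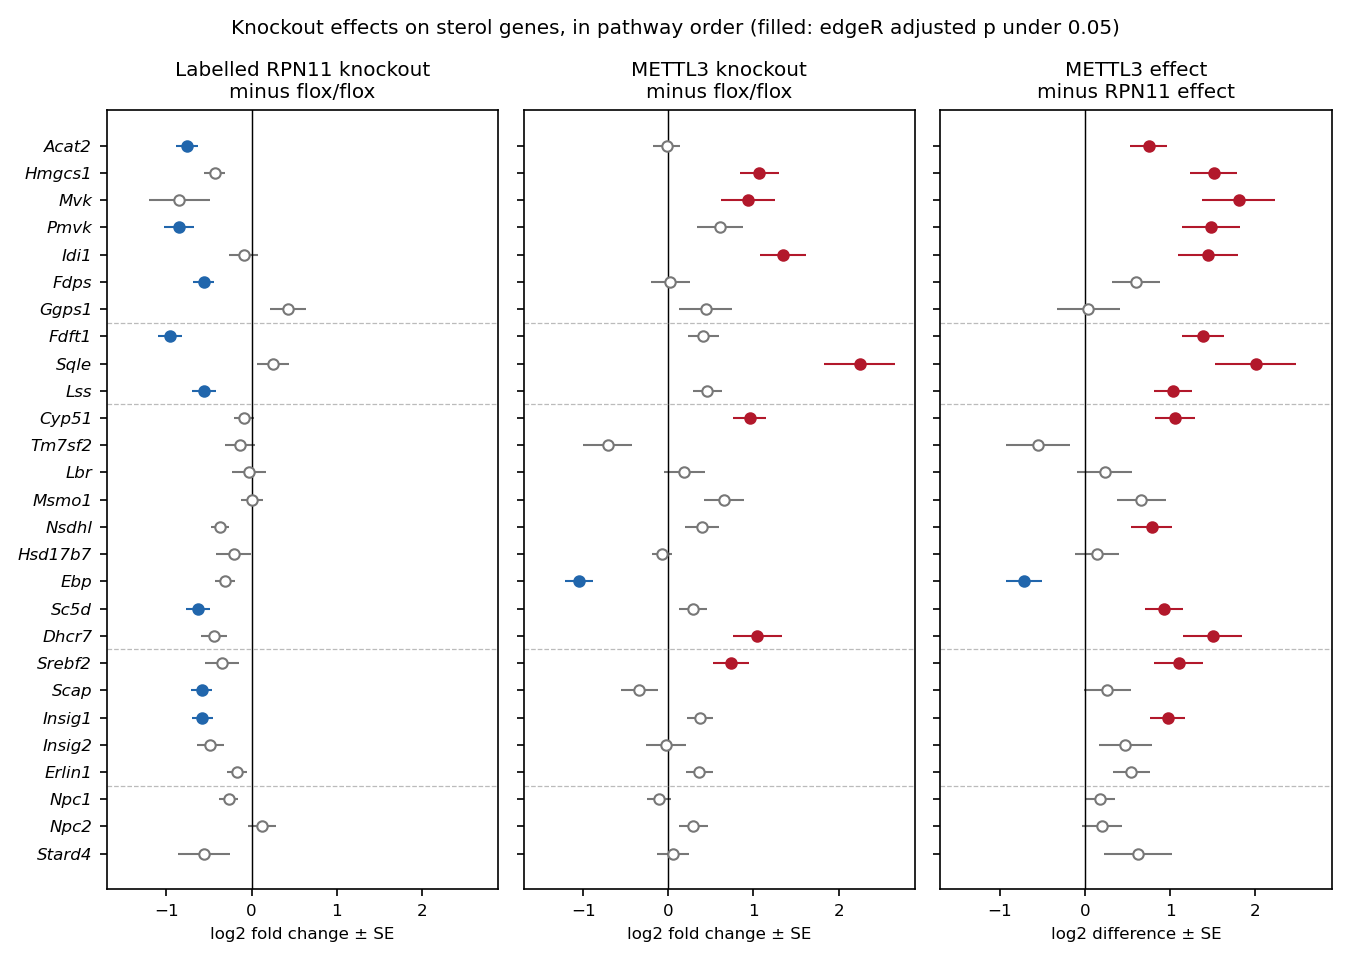
Log2 fold change of each gene, with its SE as a line, in the labelled RPN11 knockout (left) and the METTL3 knockout (middle), and the METTL3 effect minus the RPN11 effect (right), in pathway order with dashed lines between groups of genes. Filled points passed an edgeR adjusted p under 0.05: 8 lower on the left, 7 higher and 1 lower in the middle, 14 higher and 1 lower on the right.

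In the labelled RPN11 knockout livers the pathway genes leaned down. Of the 26 members 8 were lower and 0 higher at an edgeR adjusted p under 0.05, while 2.82% of the 12108 genes tested were lower and 1.99% higher. The log2 fold change was below 0 for 23 of 26, with a median of -0.40 against 0.03 over all genes tested. The groups of 4 did not overlap for 13 members, all of them lower, against 18.2% of all genes in either direction. Summed over the 26 members, the plain level was 2489 to 2637 CPM in the flox/flox livers and 2019 to 2122 CPM in the knockouts, without overlap.

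Among the mevalonate enzymes 3 of 7 were lower. Acat2, the cytosolic thiolase that opens the pathway, was at 56.3, 47.5, 60.4 and 69.4 CPM in flox/flox livers 1 to 4 and at 33.9, 39.3, 34.0 and 31.5 CPM in knockouts 1 to 4. Every knockout lay below every control, and the fold change was -0.75 on the log2 scale (SE 0.13, adjusted p = 0.0138). Its close paralog Acat3 may share reads with it, so its counts carry that uncertainty. Pmvk, phosphomevalonate kinase, was at 18, 26.7, 21.8 and 32.6 CPM in controls and at 13.4, 14.6, 12.4 and 14.4 CPM in knockouts (log2 -0.85, SE 0.18, adjusted p = 0.0226). Its knockouts lay close together and below a control group that spread widely. Fdps, which makes farnesyl diphosphate, was at 54.6, 62.9, 73.2 and 81.0 CPM against 43.9 to 47.7 CPM (log2 -0.56, SE 0.12, adjusted p = 0.0298). Of its annotated exon bases 26.7% also belong to Gm43738 on the same strand.

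The other mevalonate enzymes did not pass. Hmgcs1 was at 228 to 296 CPM in controls and 170.1 to 221 CPM in knockouts (log2 -0.43, adjusted p = 0.0697), and Mvk at 2.27 to 3.42 and 1.15 to 2.05 CPM (log2 -0.85, SE 0.36, adjusted p = 0.169). Neither gene's groups overlapped. Idi1, the isopentenyl diphosphate isomerase, overlapped between groups (log2 -0.09, adjusted p = 0.777). Ggps1, whose product feeds protein prenylation rather than sterols, had a value above 0 (log2 0.43, adjusted p = 0.235), with knockout 1 at 6.10 CPM inside the control range of 4.88 to 6.67.

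The lowest adjusted p of all members belonged to Fdft1, squalene synthase, the first enzyme committed to sterols (chr14:63145150-63179578, minus strand, GRCm38). It was at 79.9, 68.3, 91.4 and 110.4 CPM in flox/flox livers and at 43.4, 48.7, 47.8 and 40.2 CPM in knockouts. The highest knockout lay well below the lowest control, and the mean fell from 87.5 ± 17.9 to 45.0 ± 3.97 CPM (SD, n = 4), a log2 fold change of -0.96 (SE 0.14, adjusted p = 0.00821). Exons of Ctsb on the opposite strand cover 18.3% of its exon bases, and reads of the 2 genes cannot be told apart without strand, a setting not given in the sources used here. Lss, lanosterol synthase, was at 27, 30.7, 29.9 and 39.5 CPM in controls and at 22.1, 20.9, 23.8 and 19.5 CPM in knockouts (log2 -0.56, SE 0.14, adjusted p = 0.0407), again with no overlap. Sqle, squalene epoxidase, which acts between these enzymes and is a control point of the pathway, did not follow them: it was at 14.6, 17.5, 13.9 and 20.0 CPM in controls and at 25.4, 16.2, 21.9 and 15.2 CPM in knockouts (log2 0.25, SE 0.19, adjusted p = 0.429). Knockouts 1 and 3 stood above all controls and knockouts 2 and 4 among them.

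From lanosterol onward 1 of 8 enzymes passed. Sc5d was at 557, 554, 547 and 599 CPM in controls and at 404, 389, 397 and 271 CPM in knockouts (log2 -0.63, SE 0.14, adjusted p = 0.0301). All knockouts were lower, and knockout 4 was lower than its group. That liver had the highest brain gene sum and the highest macrophage sum (949.5 CPM) of its line. Without it Sc5d was still lower (log2 -0.50, adjusted p = 0.0078). The other 7 all had values below 0: Nsdhl -0.37 (adjusted p = 0.0609) and Ebp -0.31 (0.121), whose groups did not overlap, then Dhcr7 -0.44 (0.103), Hsd17b7 -0.21 (0.566), Tm7sf2 -0.14 (0.673), Cyp51 -0.09 (0.667) and Lbr -0.03 (0.937). Msmo1 was level at 69.2 ± 10.6 and 69.4 ± 7.0 CPM (log2 0.00, SE 0.13, adjusted p = 0.985).

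Of the sensing machinery, 2 of 5 genes were lower. Scap, the escort of SREBP-2, was at 56.9, 59.3, 50.4 and 56.3 CPM in controls and at 42.9, 39.1, 36.6 and 30.1 CPM in knockouts (log2 -0.58, SE 0.12, adjusted p = 0.0238). Insig1, which retains SCAP and is itself a target of SREBP-2, was at 208, 275, 227 and 241 CPM in controls and at 161, 176, 161 and 138 CPM in knockouts (log2 -0.58, SE 0.12, adjusted p = 0.0248). In both genes the groups were separate. Insig2 was at 351 to 519 CPM in controls and 259 to 348 CPM in knockouts (log2 -0.48, adjusted p = 0.0952). Srebf2 had a log2 value of -0.34 (adjusted p = 0.307) and overlapped, and Erlin1, a cholesterol-binding protein of the endoplasmic reticulum, had -0.17 (adjusted p = 0.408). None of the 3 transport genes passed. Npc1 and Npc2, which export cholesterol from lysosomes, had values of -0.27 (adjusted p = 0.162) and 0.12 (0.680), and Stard4, a cytosolic sterol carrier, of -0.56 (0.291), with knockouts at 37.5, 21, 35.1 and 12.5 CPM against controls at 33.2 to 43.3 CPM.

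The number of these calls depended on single livers, as did that over all genes. Leaving out RPN11 flox/flox liver 1, 2, 3 or 4 left 2, 2, 1 and 1 members lower, and leaving out labelled knockout 1, 2, 3 or 4 left 6, 2, 6 and 8. Over all genes the lower calls went from 342 to 23, 141, 18 and 33 without those controls. Without those knockouts they went to 272, 92, 266 and 494. Among the members Fdft1 alone passed each time, with log2 values of -1.06 to -0.82. In 1 fit of all 16 livers 4 members were lower (Fdft1, Acat2, Insig1 and Sc5d), and DESeq2 called 11, adding Hmgcs1, Insig2 and Nsdhl.

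In the METTL3 knockout enzymes of several steps rose, together with Srebf2. Of the 26 members 7 were higher and 1 lower, while 15.2% of the 12450 genes tested were higher and 15.3% lower. The log2 fold change was above 0 for 19 of 26, with a median of 0.37 against 0.04 over all genes. Groups did not overlap for 6 members, 5 of them higher in the knockout, against 31.6% of all genes in either direction. The members' plain summed level was 1971 to 2356 CPM in the flox/flox livers and 2593, 3960.0, 4050 and 3963 CPM in knockouts 1 to 4. These sums use plain totals, without the scaling applied to single genes. Their rise is therefore not the size of the change in scaled levels. In scaled levels the median log2 ratio of the members to the flox/flox mean was 0.13, 0.39, 0.45 and 0.09 in knockouts 1 to 4.

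**Figure D3:**
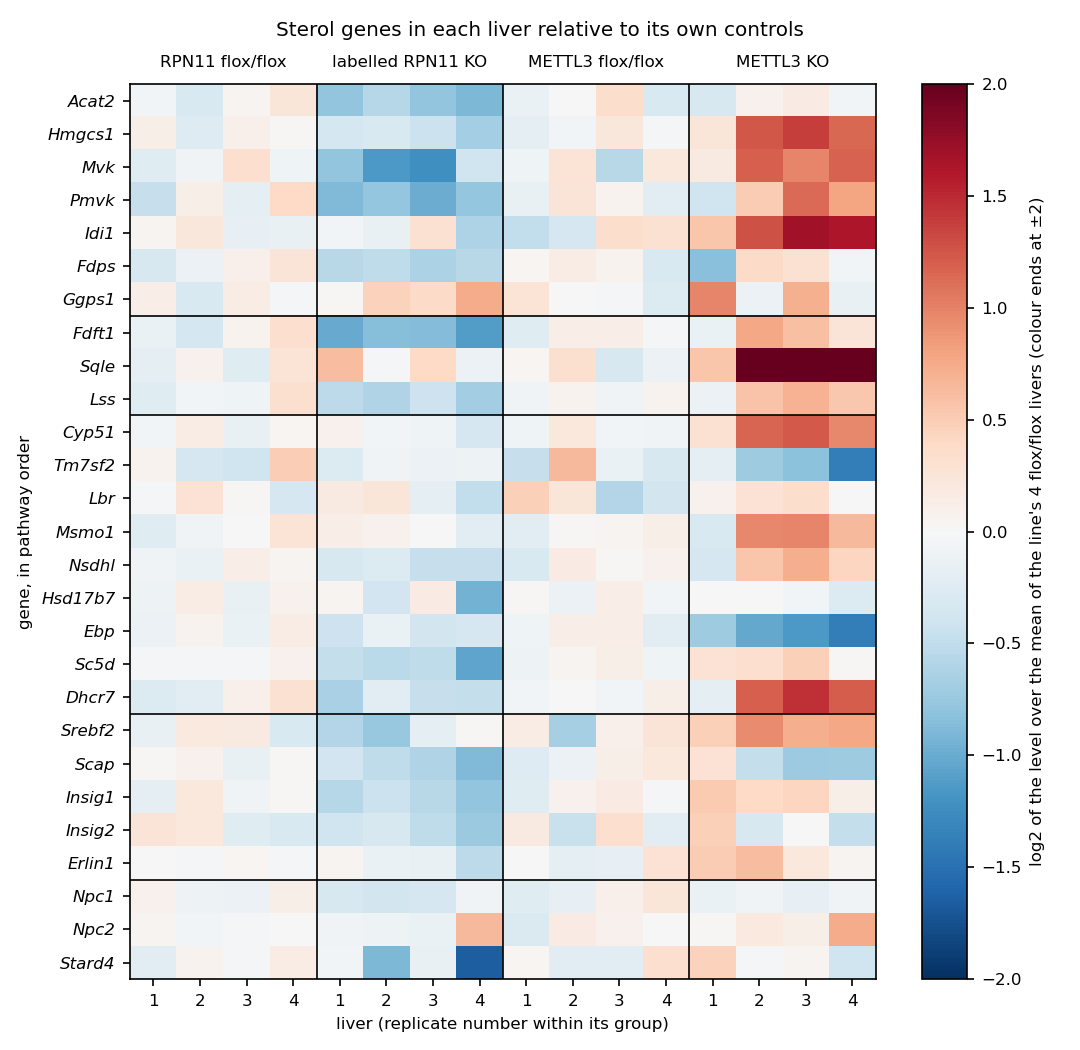
Log2 of each gene's level over the mean of its own line's 4 flox/flox livers, 1 column per liver and 1 row per gene in pathway order, red above and blue below, with the colour ending at 2 in either direction. The labelled RPN11 knockout columns are mostly blue, and METTL3 knockout columns 2 to 4 hold the strongest reds, at Sqle, Idi1, Hmgcs1 and Dhcr7, while column 1 is paler.

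The mevalonate enzymes that rose were Hmgcs1, Mvk and Idi1, 3 of 7. Hmgcs1 was at 192, 211, 255 and 212 CPM in flox/flox livers and at 258, 516, 567 and 485 CPM in knockouts. Knockouts 2 to 4 stood far above the controls and knockout 1 just above the highest of them (log2 1.07, SE 0.23, adjusted p = 0.00576). Idi1 was at 29.2, 32.7, 52.4 and 50.7 CPM in controls and at 60.8, 99.3, 131 and 127 CPM in knockouts, without overlap (log2 1.34, SE 0.27, adjusted p = 0.00533). Mvk, at low level, was at 3.43, 4.40, 2.47 and 4.20 CPM in controls and 4.08, 8.28, 7.16 and 8.22 CPM in knockouts (log2 0.94, SE 0.31, adjusted p = 0.0408), with knockout 1 inside the control range. Pmvk (log2 0.61, adjusted p = 0.106) and Ggps1 (0.44, 0.299) did not pass, and the values of Fdps (0.02, SE 0.23, adjusted p = 0.953) and Acat2 (-0.02, SE 0.16, adjusted p = 0.937) lay near 0.

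Sqle had the largest change of any member (chr15:59315077-59331192, plus strand, GRCm38). It was at 19.1, 23.1, 14.9 and 17.0 CPM in flox/flox livers and at 27.2, 109.7, 112 and 103 CPM in knockouts. Knockouts 2 to 4 formed a tight group several times above every control, and knockout 1 lay near the controls but above them. The mean rose from 18.5 ± 3.51 to 88.0 ± 40.7 CPM (SD, n = 4), 4.75-fold (log2 2.25, SE 0.42, adjusted p = 0.00556). The enzymes on either side of it had smaller values that did not pass: Lss 0.46 (adjusted p = 0.0577) and Fdft1 0.41 (adjusted p = 0.113), with knockout 1 inside or below the control range in both.

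From lanosterol onward 2 of 8 rose and 1 fell. Cyp51, the cytochrome P450 that demethylates lanosterol, was at 103, 126, 105 and 103 CPM in controls and at 135, 244, 254 and 213 CPM in knockouts, without overlap (log2 0.96, SE 0.19, adjusted p = 0.00420). Dhcr7, a reductase of the final step, was at 28.1, 29.1, 28 and 31.7 CPM in controls and at 25.4, 66.9, 80.9 and 67.9 CPM in knockouts (log2 1.04, SE 0.29, adjusted p = 0.0222). Knockout 1 was below all controls and the others were far above them. Ebp went the other way: it was at 228, 265, 266 and 209 CPM in controls and at 148, 118, 109 and 92.3 CPM in knockouts, fully separate and 2.07-fold lower (log2 -1.05, SE 0.17, adjusted p = 0.00148). Msmo1 was at 80.7 to 102 CPM in controls and at 75.9, 182, 184 and 147 CPM in knockouts (log2 0.65, SE 0.24, adjusted p = 0.0579). Tm7sf2, a sterol reductase, had a value of -0.71 (adjusted p = 0.0858), while Lbr, which catalyses the same reduction and also anchors chromatin at the nuclear envelope, had 0.19 (0.573). Nsdhl had 0.39 (0.158), Sc5d 0.29 (0.190) and Hsd17b7 -0.08 (0.650).

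**Figure D4:**
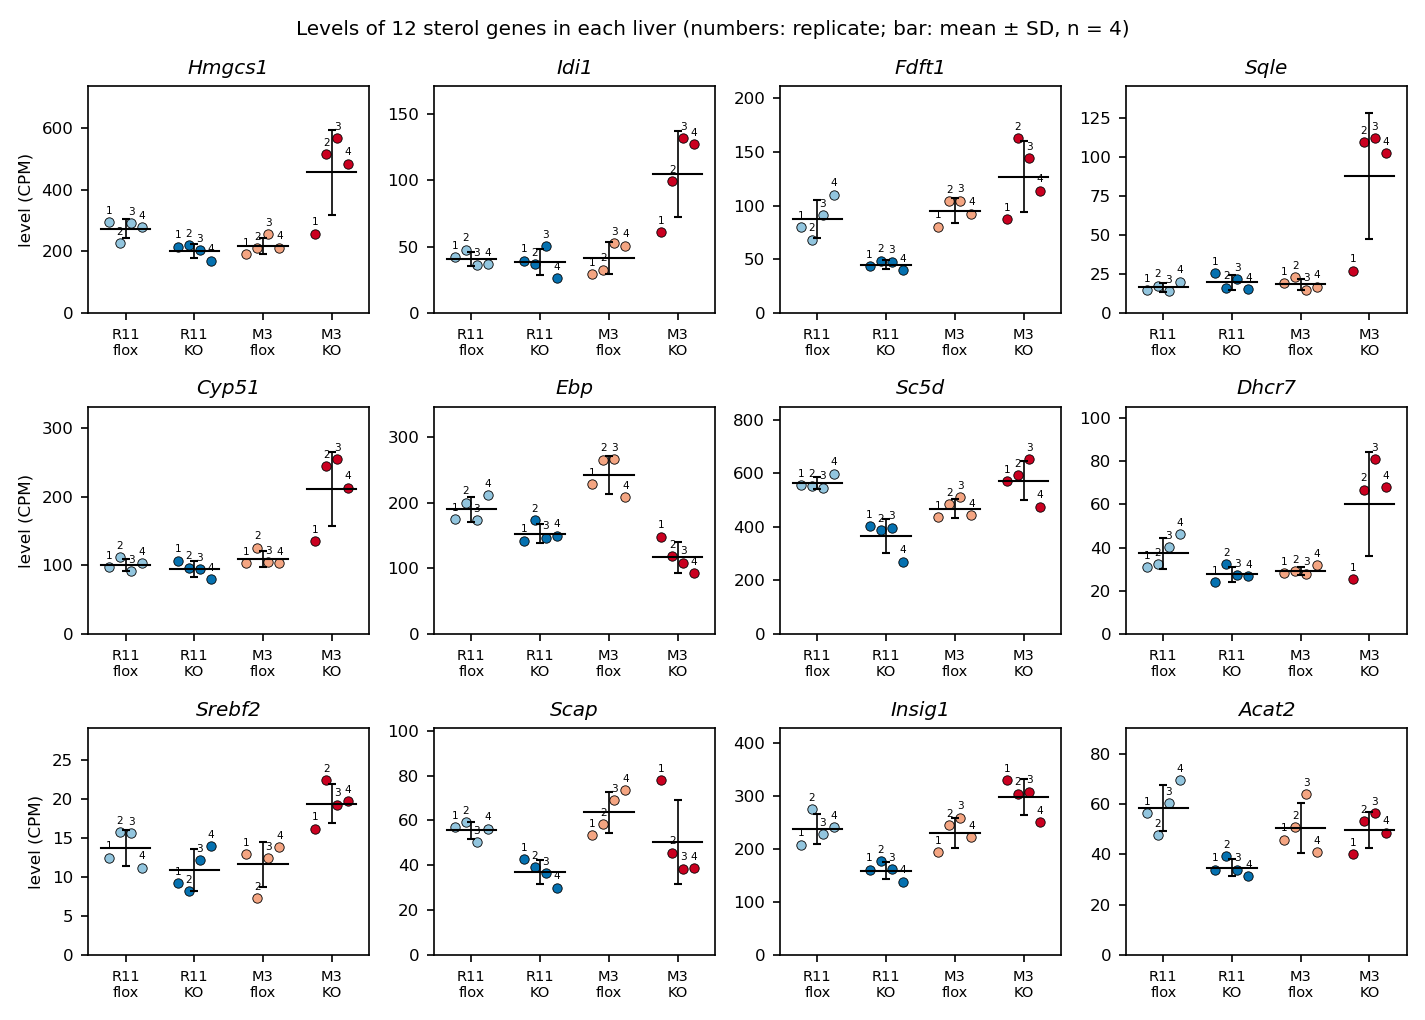
Level of 12 genes in each liver in CPM, scaled within each line, with the replicate number above each point and the mean and SD (n = 4) as bars; R11 flox and R11 KO are RPN11 flox/flox and labelled RPN11 knockout, M3 flox and M3 KO the METTL3 groups. In Hmgcs1, Idi1, Sqle, Cyp51 and Dhcr7 METTL3 knockout liver 1 sits near the controls and livers 2 to 4 above them, and in Fdft1, Acat2, Insig1 and Scap all labelled RPN11 knockouts sit below their controls.

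Srebf2 rose with the enzymes: it was at 12.9, 7.31, 12.4 and 13.8 CPM in flox/flox livers and at 16.2, 22.4, 19.3 and 19.8 CPM in METTL3 knockouts (log2 0.74, SE 0.21, adjusted p = 0.0211). Every knockout was above every control, knockout 1 included. It was the 1 gene of 5 in the sensing machinery that passed. Insig1 was at 193 to 258 CPM in controls and 249.5 to 329 CPM in knockouts (log2 0.37, adjusted p = 0.0863), and Erlin1 had 0.36 (0.104). Scap was at 53.3, 58.4, 68.9 and 73.5 CPM in controls and at 77.9, 45.7, 38.5 and 38.8 CPM in knockouts (log2 -0.34, adjusted p = 0.260). Here knockout 1 was above all controls and the other knockouts below them. Insig2 (-0.03, adjusted p = 0.946) and the transport genes Npc1 (-0.11, 0.594), Npc2 (0.30, 0.206) and Stard4 (0.05, 0.851) did not pass.

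METTL3 knockout liver 1 stood apart from its group in part of these genes, among them Sqle, Hmgcs1, Idi1 and Dhcr7. Its Mettl3 level of 6.85 CPM lay within the 6.56 to 7.02 CPM of the other knockouts. Over all 26 members, knockouts 1 and 4 each had 16 members above the flox/flox mean. Their median log2 ratios to it were 0.13 and 0.09, against 0.39 and 0.45 in knockouts 2 and 3. The hepatocyte marker sum of knockout 1 was 132077 CPM, in the range of the flox/flox livers, against 78131 to 98956 CPM in knockouts 2 to 4. Its macrophage sum was 378 against 591 to 1321 CPM. The part of cell composition in these differences was not tested. With knockout 1 left out, 11 members were higher and 3 lower. Calls over all genes rose as well, from 1893 higher and 1906 lower of 12450 genes to 2451 and 2481 of 12765. Fdft1 (log2 0.56), Lss (0.61), Nsdhl (0.58) and Pmvk (0.83) then also passed as higher, Scap (-0.63) and Tm7sf2 (-0.93) as lower, and Msmo1 passed too (0.87, adjusted p = 0.000389). Without knockout 2, 4 members were higher, while 1407 of 12651 genes were, and Srebf2 no longer passed (adjusted p = 0.0658). Dhcr7 lost its call without any 1 of flox/flox livers 1, 2 or 3 or knockouts 2, 3 or 4 (log2 0.87 to 1.04 in those fits). Mvk lost its call without any 1 liver other than knockout 1 (log2 0.79 to 1.04). Sqle, Idi1, Hmgcs1, Cyp51 and Ebp passed without any single liver.

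The difference between the knockout effects was tested in 1 fit of all 16 livers. It was higher in METTL3 for 14 members and lower for 1, while 6.15% of 13118 genes tested were higher and 6.96% lower. The difference was above 0 for 24 of 26 members, with a median of 0.76 on the log2 scale against -0.02 over all genes. No member passed in both lines on its own. For 16 members the fold change was below 0 in the labelled RPN11 knockout and above 0 in the METTL3 knockout. These 2 comparisons share no livers, and the share of all genes with the same signs was not counted.

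By step, the difference passed for all 3 enzymes of squalene and lanosterol synthesis: Sqle (2.0, SE 0.48, adjusted p = 0.0143), Fdft1 (1.38, SE 0.25, adjusted p = 0.00225) and Lss (1.03, SE 0.22, adjusted p = 0.00691). Sqle had a value of 0.25 in the labelled RPN11 knockout and 2.25 in METTL3, whereas Fdft1 had -0.96 and 0.41. Of the 7 mevalonate enzymes 5 passed, Mvk (1.80), Hmgcs1 (1.51), Pmvk (1.48), Idi1 (1.44) and Acat2 (0.75), and Fdps did not (0.60, adjusted p = 0.170). The value of Ggps1 was 0.04 (SE 0.37, adjusted p = 0.963), with about the same fold change in each line, 0.43 and 0.44.

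Of the 8 later enzymes 4 were higher, Dhcr7 (1.5), Cyp51 (1.05), Sc5d (0.93) and Nsdhl (0.78). Nsdhl passed in neither line alone. Ebp was the member whose difference was lower (-0.72, SE 0.21, adjusted p = 0.0303), with fold changes of -0.31 and -1.05. In the machinery Srebf2 (1.10, SE 0.29, adjusted p = 0.0190) and Insig1 (0.97, SE 0.20, adjusted p = 0.00524) passed, and Scap (0.26, adjusted p = 0.600), Insig2 (0.47, 0.352) and Erlin1 (0.54, 0.103) did not. No transport gene passed. Msmo1 had 0.66 (SE 0.29, adjusted p = 0.144) and passed without METTL3 knockout 1 (0.86, adjusted p = 0.00475). Leaving out each of the 16 livers in turn ended the call of Nsdhl 11 times, of Acat2 8 times and of Ebp 7 times, and of none of the other 12. With knockout liver 4 of both lines left out, the livers with the highest brain gene sums, 14 of the 15 calls remained. Nsdhl was lost (adjusted p = 0.0586).

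The control groups of the lines were compared as well, since each knockout is read against its own. No member passed between RPN11 flox/flox and METTL3 flox/flox livers in edgeR, while 0.244% of 11905 genes were higher and 0.0756% lower in RPN11 flox/flox. At an unadjusted p under 0.05 edgeR had 1962 genes, and DESeq2 called 4 members higher in RPN11 flox/flox: Dhcr7, Hmgcs1, Insig2 and Sc5d. The edgeR values of these were 0.51 (adjusted p = 0.0922), 0.48 (0.0605), 0.83 (0.0733) and 0.42 (0.0507). A gap between the controls is also a term of the difference of effects, in which Dhcr7, Hmgcs1 and Sc5d passed as higher. Its part there was not tested. The control groups did not overlap for 3 members, Dhcr7, Insig2 and Sc5d, against 9.12% of all genes. With METTL3 flox/flox liver 4 left out, Hmgcs1 and Sc5d passed in edgeR.

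Beyond the members, 58 further genes of sterol metabolism in 6 lists were tested. In the labelled RPN11 knockout 1 was higher (1.72%, against 1.99% of all genes) and 8 lower (13.8%, against 2.82%), with a median of -0.18 against 0.03 over all genes. Mbtps2, a protease that releases SREBP-2, was the gene that rose (14.2 ± 1.40 to 21.6 ± 2.49 CPM, log2 0.61, adjusted p = 0.0288). Lipa, the lysosomal lipase that frees cholesterol from its esters, was at 299 to 354 CPM in controls and 202 to 221 CPM in knockouts (log2 -0.64, adjusted p = 0.0114). Tmem97, a sterol-regulated partner of NPC1, fell by 0.61 on the log2 scale (adjusted p = 0.0180), Soat2, which esterifies cholesterol in hepatocytes, by 0.86 (0.0169), and the esterase Ces1d by 0.92 (0.0124). Lpcat3 fell by 0.60 (0.0180), Cyb5r3, which passes electrons to sterol enzymes, by 0.52 (0.0446), and the mitochondrial thiolase Acat1 by 0.58 (0.0497). With all livers Abca1 (log2 0.45, adjusted p = 0.0832), Abcg1 (2.68, 0.181) and Soat1 (2.60, 0.181), 3 genes named after their values were seen, did not pass. Without labelled knockout 4, which held 122 CPM of Abcg1 and 99.7 CPM of Soat1 against at most 11.3 and 9.55 CPM in the other labelled knockouts, all 3 passed as higher, at 0.53, 0.77 and 0.74.

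In the METTL3 knockout 9 of the 58 were higher (15.5%, against 15.2% of all genes) and 12 lower (20.7%, against 15.3%), with a median of -0.04 against 0.04 over all genes. The share higher was thus near that of all genes. The lowest p belonged to Por, the reductase that supplies electrons to Cyp51 and Sqle, at 462, 504, 436 and 408 CPM in controls and 148, 93.2, 102 and 73.5 CPM in knockouts. All knockouts lay far below all controls (log2 -2.12, SE 0.21, adjusted p = 0.000176). The electron carriers Pgrmc1 and Cyb5r3 fell by 0.70 (adjusted p = 0.0367) and 0.49 (0.0369). Tmem97 rose by 0.91 on the log2 scale (0.0166), from 58.6 ± 6.41 to 110.4 ± 39.0 CPM, and again its knockout 1, at 57.3 CPM, was inside the control range. Rdh11, a retinol dehydrogenase, rose by 1.09 (0.00752), while Acat1 and Acat3 fell by 1.0 (0.00539) and 0.59 (0.0200).

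Of the 7 oxysterol receptor and target genes tested, 2 rose, 2 fell and 3 did not pass, with a median of -0.55. The receptor genes Nr1h3 and Nr1h2 fell by 0.72 (adjusted p = 0.00260) and 0.55 (0.0390), and the export pumps Abca1 and Abcg1 rose by 0.64 (0.00872) and 2.86 (0.0283). The sterol pump genes Abcg5 and Abcg8, targets of the same receptors named after their values were seen, had values of -0.78 (adjusted p = 0.181) and -1.08 (0.0987). Without METTL3 knockout 1 both passed as lower, at -1.41 and -1.75. Abcg1 was at 3.82 to 7.84 CPM in controls and at 12.1, 21.6, 14.2 and 98.2 CPM in knockouts. Knockout 4 was far above the others, and without it the log2 value was 1.67. This liver also had the highest brain gene sum and the highest macrophage sum (1321 CPM) of its line. Gramd1b, a sterol carrier, had the same liver highest (25.9 CPM against 5.89 to 12.5 in the other knockouts) and a log2 value of 1.94, or 1.45 without it. Stard5 fell by 0.89 (adjusted p = 0.00333), Scp2 by 0.77 (0.0333) and Ces1d by 1.72 (0.0148), and Nceh1 rose by 1.07 (0.0467). Of the degradation machinery Faf2 and the SREBP-2 protease Mbtps1 rose by 0.53 (0.0191) and 0.31 (0.0404), and Aup1 fell by 0.80 (0.00549). Lipa, named outside the rule of 4 a list, rose by 0.41 (0.0482).

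The knockout effects on 8 of these 58 differed, 7 of them upward in METTL3 (12.1%, against 6.15% of all genes) and 1 downward (1.72%, against 6.96%). Tmem97 (1.54, adjusted p = 0.00268), Soat2 (1.23, 0.00445), Lipa (1.07, 0.000892), Rdh11 (1.07, 0.0246), Mbtps1 (0.82, 0.00499), Faf2 (0.69, 0.0378) and Erlin2 (0.53, 0.0416) were higher, and Por (-1.79, 0.000953) lower. Lipa was also the 1 gene of the 58 that differed between the control groups, higher in RPN11 flox/flox (0.69, adjusted p = 0.0150).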

How the data were processed

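Ribosomal-RNA-depleted RNA of 16 livers was measured. The authors deposited counts per gene for each liver beside 16 columns of normalized values, which were not used. Per the submitters' processing notes, cutadapt 1.9.3, HISAT2 2.0.4, HTSeq 0.9.1 and edgeR were used with mm10; annotation and strand setting: not given in the sources used here. The deposited counts were tested with edgeR 4.0.16 (R 4.3.3): filterByExpr by group, TMM scaling, the robust quasi-likelihood test, and Benjamini-Hochberg adjustment over all genes tested, with a threshold of 0.05. Each line was fitted alone (8 livers, 6 residual degrees of freedom), the difference of effects in all 16 livers, and the controls in the 8 flox/flox livers. SE is the log2 fold change over the root of the F statistic. Levels are TMM-scaled counts per 1000000; list sums use plain totals. P-values measure the spread between livers, which may be partly technical. Fits were also run on simulated counts in which few genes changed, far fewer than were called in the METTL3 comparison. That run does not cover shifts of such a size.

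All 28 listed genes are named. Of the lists of other sterol genes, those past the threshold are named, at most 4 a list by lowest p, except 1 that is not reported here. Members and lists were chosen with earlier results of these data known. Alternatives were RLE factors, no filter, DESeq2 1.42.0, a minimum mean of 5 CPM, 1 fit of all 16 livers, a replicate block and each liver left out. Total counts were 15980959 to 29029592 per liver.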

Additional observations from a re-analysis of the deposited data

Results flagged for a closer look

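In 5 of 108 groups of 4 livers, over the 26 members and Msmo1, a gene had 1 liver far from the other 3 by Dixon's test, where chance alone gives about 1 in 20, or 5.4. Labelled RPN11 knockout liver 4 was the highest of its group for Npc2 (77.4 CPM) and Npc1 (163 CPM) and the lowest for Sc5d (271 CPM). This liver also had the highest brain gene sum, 1190.5 CPM. Its macrophage (949.5 CPM) and lymphocyte (65.6 CPM) marker sums were the highest of its line. The part of any of these in the values was not tested. METTL3 flox/flox liver 2 was the highest of its group for Cyp51, at 126 CPM. METTL3 knockout liver 1 was the lowest of its group for Sqle, at 27.2 CPM.

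For 15 members the METTL3 effect and the labelled RPN11 effect differed by the test of the difference in 1 edgeR fit of all 16 livers. On the log2 scale the METTL3 effect was higher by 2.0 for Sqle, 1.80 for Mvk, 1.51 for Hmgcs1, 1.5 for Dhcr7, 1.48 for Pmvk, 1.44 for Idi1, 1.38 for Fdft1, 1.10 for Srebf2, 1.05 for Cyp51, 1.03 for Lss, 0.97 for Insig1, 0.93 for Sc5d, 0.78 for Nsdhl and 0.75 for Acat2. For Ebp the difference was -0.72.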

How the results depend on the processing

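No member past the threshold reversed its direction in any alternative. In the labelled RPN11 knockout the count of members lower was 4 in 1 fit of all 16 livers and 1 to 8 with 1 liver left out; over all genes, higher calls went from 241 to 149 with no filter, 374 at a mean of at least 5 CPM, 584 with DESeq2, 160 in 1 fit of 16 and 37 to 447 with 1 liver left out, and lower calls from 342 to 201 with no filter, 710 with DESeq2, 183 in 1 fit of 16 and 18 to 494 with 1 liver left out. In METTL3 the members lower were 2 in 1 fit of 16, and with 1 liver left out 4 to 11 were higher and 1 to 3 lower. For the difference, leaving out 1 liver gave 0 to 1 members lower, and 510 to 1050 genes higher and 585 to 1613 lower. Between controls, members higher were 1 with RLE factors, 2 with no filter, 1 at 5 CPM, 4 with DESeq2 and 0 to 2 with 1 liver left out. All genes higher were 56 with RLE factors, 104 with no filter, 62 at 5 CPM, 265 with DESeq2, 1 in 1 fit of 16 and 1 to 194 with 1 liver left out, and all genes lower were 40 with no filter, 21 at 5 CPM, 152 with DESeq2, 0 in 1 fit of 16 and 0 to 88 with 1 liver left out. The cause was not tested.

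With the replicate number as a block, 5 members were lower in the labelled RPN11 knockout, with 150 genes higher and 226 lower, and between controls 4 genes were higher and 3 lower. The METTL3 and difference calls of members were the same as without it. Same-numbered livers did not deviate together in the RPN11 line (r across genes -0.045 to 0.0055). In the METTL3 line r was 0.11, 0.083, 0.13 and 0.31 for replicates 1 to 4. The highest r with another number was 0.04, 0.14, 0.056 and -0.098, lower for replicates 1, 3 and 4. A shared deviation in that line thus remains possible. The numbers were not taken to pair the livers because nothing in the labels ties them.

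The median of all genes in METTL3 went from 0.04 to 0.17 with no filter and 0.18 with DESeq2, which keep low genes, while that of the members stayed at 0.37. Depth adds counting error for genes at few CPM, such as Mvk.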
